A study of Mus musculus with 4 samples.

Results

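The 60 genes described here encode the machinery of the nucleolus that makes ribosomes, from RNA polymerase I and its factors to the proteins that process, modify and assemble ribosomal RNA into the small (40S) and large (60S) subunits. They were taken by gene name from a deposited table of 48178 genes, and all 60 were found and passed the filter on low values, which left 15204 genes to be tested. The libraries came from neurospheres, floating clusters of neural progenitor cells and their progeny, grown from the hippocampus of C57BL/6 mice at postnatal day 0. The FGF13Aoe group (2 libraries) had the genotype hGFAPCre+, ROSA26FGF13A LSL/+, and the littermate control group (2 libraries) had hGFAPCre+, ROSA26FGF13A +/+. All mice thus carried a Cre recombinase that the human GFAP promoter drives in neural progenitors and in astrocytes. Cultures of both groups received the growth factors FGF-2 and EGF at 20 ng/ml each and were harvested on day 7. Each mouse gave 2 wells, and no label ties the libraries of a group to separate mice. The p-values therefore reflect the spread among these 4 libraries alone, and that spread may be technical.

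Ribosome production starts with RNA polymerase I, which transcribes a long precursor of most ribosomal RNAs from repeated genes in the nucleolus. Small nucleolar ribonucleoproteins (snoRNPs) then methylate or pseudouridylate the precursor, a large assembly called the small subunit processome folds and cuts its first part, and further factors mature and export the 2 subunits. The pathway is costly, its output follows growth and cell division in many cell types, and the transcription factor MYC is a well known activator of its genes.

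Reads recovered from the normalized values came to 9724413 and 11389767 in the FGF13Aoe libraries and to 11481591 and 14092685 in the control libraries. Reads of control replicate 1 were not used as counts, because its smallest non-zero value, 0.991, was judged too close to 1. Its values were whole multiples of that value, as in the other libraries, so this exclusion was a choice. Values per gene are normalized counts, that is, reads scaled by a size factor of the library. Fgf13, the gene of the cassette, had 5410.5 and 4447 in FGF13Aoe, against 772 and 769 in control, so the groups did not overlap. Libraries of a group differed in other ways. The Y-linked gene Ddx3y had 0 and 0 in FGF13Aoe, against 4.95 and 146 in control. Xist, the transcript of the inactive X chromosome in female cells, had 30159 and 31301 in FGF13Aoe, against 18658 and 12206 in control. These sex-linked transcripts thus differed between the control libraries and between the groups, and what part this has in the results was not tested. Prm1, a gene of sperm chromatin, had 9.67 and 10.1 in FGF13Aoe, against 1040.1 and 722 in control. Whether the groups differ in a transgene that holds this sequence was not tested.

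Among nucleolar and ribosome biogenesis genes, those with lower transcript levels in FGF13Aoe neurospheres were many and those with higher levels few. By limma, 25 of the 60 genes were lower at an adjusted p under 0.05, against 19.1% of all tested genes, and 0 were higher, against 16.2% of all tested genes. At an unadjusted p under 0.05, 35 were lower and 0 higher, and edgeR on 3 libraries, which leaves out control replicate 1 and so has 1 control library, called 6 lower, against 7.14% of all tested genes, and 0 higher, against 3.53%. At an unadjusted p under 0.05 by limma, 3861 of all 15204 tested genes were lower and 3446 higher. The median log2 change of the 60 genes was -0.40, with a range of -1.61 to 0.27, beside a median of -0.01 over all tested genes. A change below 0 was seen in 53 of the 60 (88.3%), beside 50.5% of all tested genes. In 49 of them both FGF13Aoe libraries lay below both control libraries, against 37.5% of all tested genes, and in 3 (Polr1c, Pes1 and Utp14a) both lay above, against 36.2%. Normalized counts summed over the 60 genes came to 40583 and 40304 in FGF13Aoe, against 51885 and 55283 in control, so that the FGF13Aoe sum was 75.5% of the control sum. The SD of the log2 difference between replicates was 0.22 over these genes in FGF13Aoe and 0.12 in control, beside 0.59 and 0.43 over all tested genes. All tested genes include genes at far lower values, so these SDs are not matched for level. In bulk samples, fewer cells of a type and less RNA per cell cannot be told apart.

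Most changes were modest. The SD of the log2 change was 0.41 over the 60 genes, beside 1.09 over all tested genes. These SDs are not matched for level: the lowest value in any library was 109.9 for the 60 genes and 0 for all tested genes. A called fall of at least 2-fold was seen in 6 genes (Rrp12, Bysl, Utp20, Ddx21, Bop1 and Nhp2), against 11.6% of all tested genes, and a called rise of that size in 0, against 8.09%. The share of genes with falls of that size was close to the background.

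**Figure D1:**
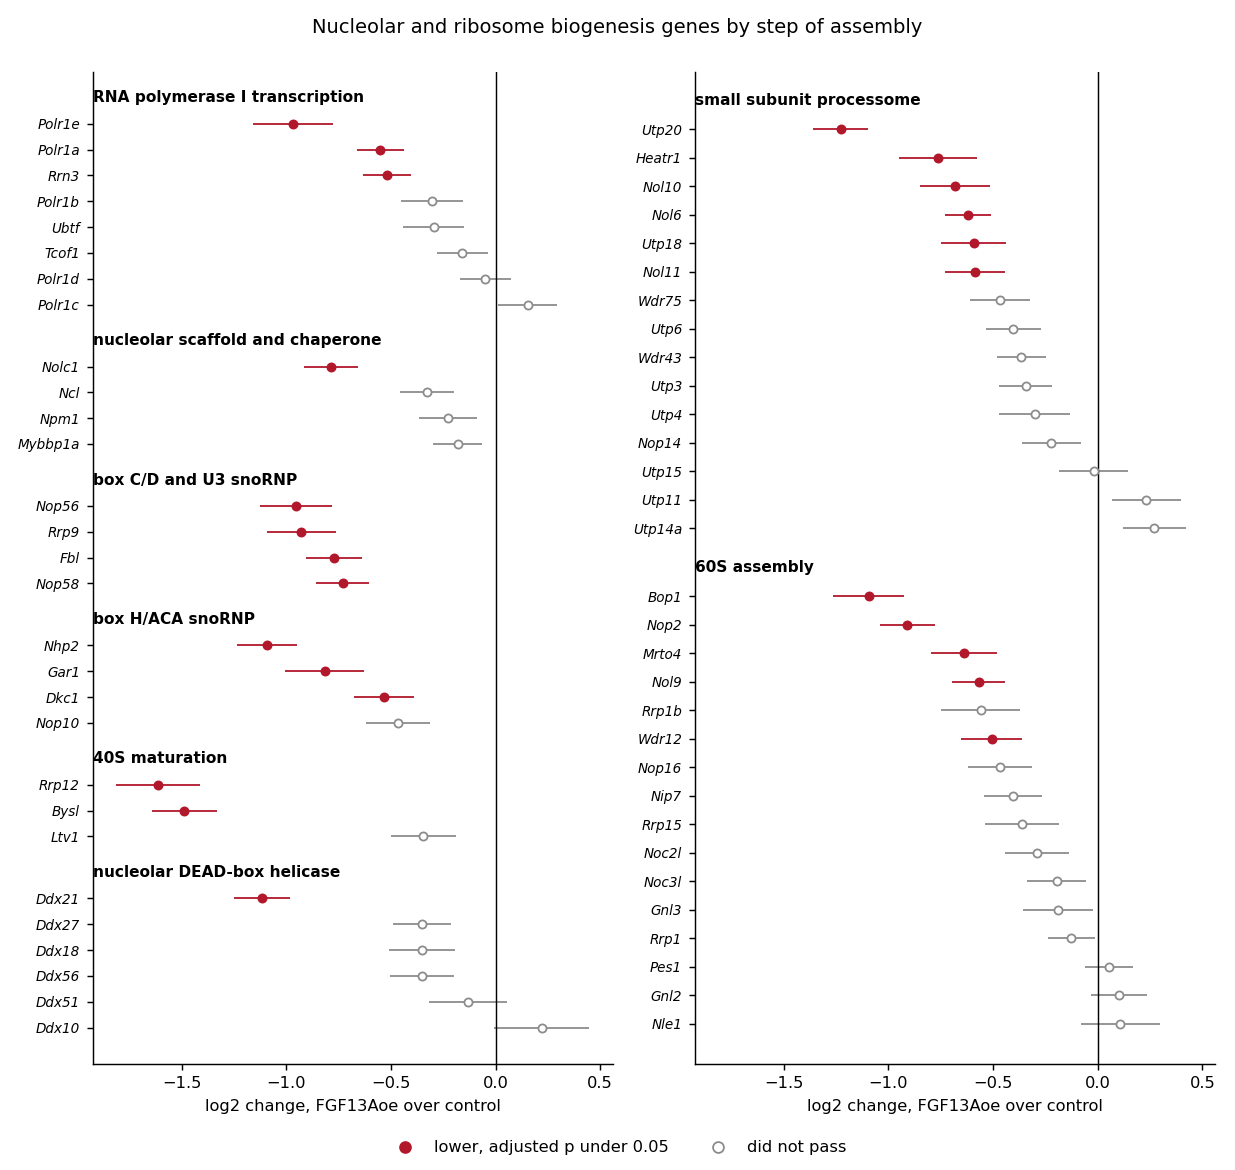
Log2 change of each of the 60 genes (horizontal axis, FGF13Aoe over control; bars are the SE), grouped by step of ribosome assembly, with filled red points for genes at an adjusted p under 0.05. The changes run from -1.61 (Rrp12) to 0.27 (Utp14a), 53 of 60 points lie below 0, and each of the 25 filled points lies below 0.

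**Figure D2:**
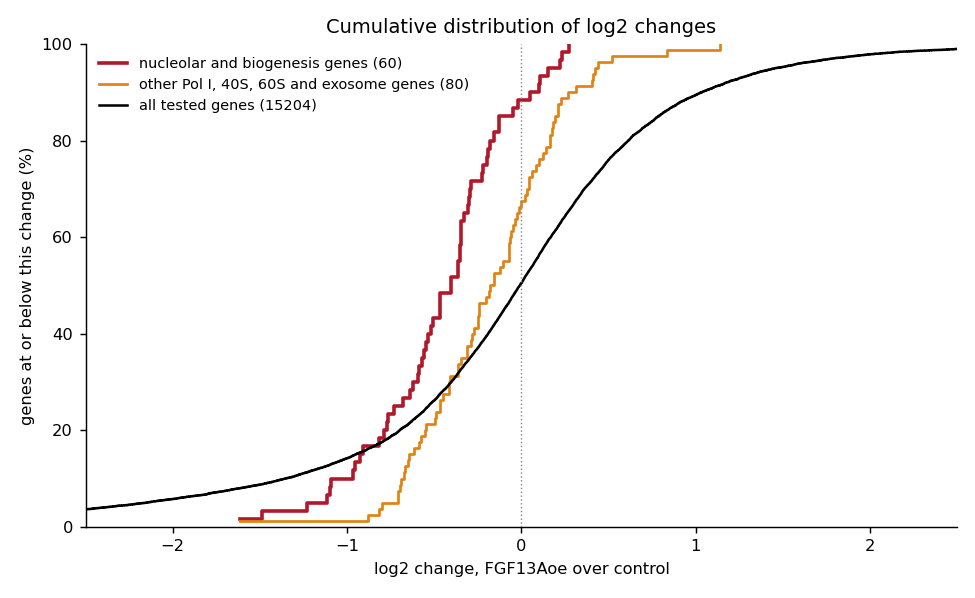
Cumulative share of genes (vertical axis, percent) at or below a given log2 change (horizontal axis, FGF13Aoe over control) for the 60 nucleolar and biogenesis genes (red), 80 other genes of the pathway (orange) and all 15204 tested genes (black). At 0 the red line stands at 88.3%, the orange line at 67.5% and the black line at 50.5%, while at the far left the black line lies above the others.

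Control libraries also held more transcript of cell division and neuron genes. All lists of cell type markers and proliferation genes are given here, whichever way they moved. Counts of called genes in the lists below stand beside 19.1% lower and 16.2% higher of all tested genes. Of 10 proliferation genes 8 were lower in FGF13Aoe and 0 higher, with summed counts of 5769 and 8228 in FGF13Aoe, against 13529 and 18176 in control. Of 10 neuron markers 8 were lower and 0 higher, with sums of 11924 and 14818 in FGF13Aoe, against 42938 and 33582 in control. Neither list overlapped between the groups in its sum. Astrocyte markers (4 of 8 higher, 0 lower) summed to 181193 and 200117 in FGF13Aoe, against 73838 and 52333 in control. Oligodendrocyte lineage markers (5 of 10 higher, 0 lower) summed to 52134 and 57869.6 in FGF13Aoe, against 23919 and 29533 in control. Both glial sums were thus higher in FGF13Aoe. Of the 10 oligodendrocyte lineage markers, however, 3 had both FGF13Aoe libraries below both control libraries, while 6 had both above. Markers of the labelled progenitors were present in all libraries, with sums of 59602 and 73158 in FGF13Aoe, against 70582 and 76719 in control; 4 of 8, Sox2 among them, were higher and 1, Nes, was lower. Microglia markers summed to only 60.4 and 98.2 in FGF13Aoe, against 380.4 and 163 in control, with Tmem119 at 0 in both FGF13Aoe libraries, and endothelial markers to 246 and 129.6 in FGF13Aoe, against 197 and 165 in control. What part these differences in cell makeup and division have in the values of the 60 genes was not tested.

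To show the DNA in front of these genes, promoter windows from 250 bases before to 50 after the transcript start were taken from RefSeq (GRCm38.p6) and searched for the E-box CACGTG, the palindrome that MYC and MAX bind. The windows of 3 genes that fell and hold the E-box (Utp20, Nop2 and Rrn3) and of Bysl, which fell and holds none, are printed 5′ to 3′ on the gene's strand, with each E-box in capitals.
Utp20, chr10:88826765-88827064 (minus strand): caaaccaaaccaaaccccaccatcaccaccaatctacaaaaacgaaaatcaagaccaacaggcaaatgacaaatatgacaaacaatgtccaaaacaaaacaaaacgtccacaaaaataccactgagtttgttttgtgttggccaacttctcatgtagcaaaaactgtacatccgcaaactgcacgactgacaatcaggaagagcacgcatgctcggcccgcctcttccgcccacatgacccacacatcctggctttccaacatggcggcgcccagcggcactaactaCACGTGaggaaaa
Nop2, chr6:125131633-125131932 (plus strand): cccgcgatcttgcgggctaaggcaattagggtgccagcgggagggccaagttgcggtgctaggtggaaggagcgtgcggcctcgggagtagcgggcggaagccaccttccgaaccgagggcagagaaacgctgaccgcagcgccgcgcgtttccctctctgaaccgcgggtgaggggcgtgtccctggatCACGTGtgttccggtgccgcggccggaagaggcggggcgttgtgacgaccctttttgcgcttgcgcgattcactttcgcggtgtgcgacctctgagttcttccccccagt
Rrn3, chr16:13780449-13780748 (plus strand): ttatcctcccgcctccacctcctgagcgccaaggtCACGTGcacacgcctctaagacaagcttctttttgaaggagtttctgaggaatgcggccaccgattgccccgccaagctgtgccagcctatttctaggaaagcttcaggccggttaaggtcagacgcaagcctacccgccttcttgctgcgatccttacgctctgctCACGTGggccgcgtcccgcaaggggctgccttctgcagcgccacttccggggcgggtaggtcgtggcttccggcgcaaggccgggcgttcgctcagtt
Bysl, chr17:47611443-47611742 (minus strand): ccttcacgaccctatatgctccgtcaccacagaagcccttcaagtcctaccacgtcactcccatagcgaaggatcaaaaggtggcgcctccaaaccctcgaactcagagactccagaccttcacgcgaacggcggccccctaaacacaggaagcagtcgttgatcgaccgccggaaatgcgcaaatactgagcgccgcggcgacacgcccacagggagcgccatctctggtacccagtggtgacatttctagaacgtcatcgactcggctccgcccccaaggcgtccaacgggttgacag
The E-box lay 38 bases after the start in Utp20, 60 bases before it in Nop2, and 215 and 48 bases before it in Rrn3. These distances are from the RefSeq start. For Nop2, GENCODE starts the gene at 125131909, and the end of the window was not found near a GENCODE transcript start. Its distance thus depends on the start used. Windows were found for 51 of the 60 genes, not for Npm1, Utp6, Rrp12, Tcof1, Gnl2, Fbl, Utp11, Bop1 and Nol6. The E-box was in a window of 11 of the 51 genes (21.6%), beside 1272 of 11148 tested genes (11.4%) and 8.09% of all genes with a window. It was present in 5 of the 21 genes that fell (23.8%) and in 6 of the 30 that did not pass (20.0%). The other holders were Nol11 and Utp18 among genes that fell and Ltv1, Mybbp1a, Nle1, Pes1, Utp4 and Wdr43 among the rest. Median GC content was 59.3% in these windows and 60.7% in those of tested genes. A match is a description of letters and does not show that a factor binds there.

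RNA polymerase I subunits and factors open the pathway, and 3 of the 8 genes were lower and 0 higher, with a median log2 change of -0.30. Polr1e, a subunit that helps the enzyme start, had normalized counts of 161 and 158 in FGF13Aoe, against 276 and 353 in control. Its log2 change was -0.97 ± 0.19 (SE, 2 against 2 libraries; limma adjusted p = 0.0141). Polr1a, the largest subunit, which forms the catalytic core with Polr1b, had 640.4 and 628 in FGF13Aoe, against 932 and 925 in control, a log2 change of -0.55 ± 0.11 (SE, 2 against 2 libraries; limma adjusted p = 0.0165). For both subunits the FGF13Aoe libraries lay below the control libraries. Rrn3, the initiation factor that brings the polymerase to its promoter, had 729.8 and 779 in FGF13Aoe, against 1066 and 1095 in control, a log2 change of -0.52 ± 0.12 (SE, 2 against 2 libraries; limma adjusted p = 0.0203). Ubtf, which binds and opens ribosomal DNA, had the highest normalized count of the 8 without scaling for length, with 1463 and 1789.5 in FGF13Aoe, against 1879 and 2099 in control; its log2 change of -0.30 ± 0.15 did not pass (limma adjusted p = 0.161), although the groups did not overlap. The remaining 4 genes did not pass and had log2 changes of -0.30 for Polr1b, -0.16 for Tcof1, a cofactor named treacle, and -0.05 and 0.15 for Polr1d and Polr1c, which RNA polymerase III also uses. Without control replicate 1 or 2, each of the 3 calls was lost, with log2 changes of -1.14 to -0.50 and adjusted p of 0.0623 to 0.167.

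Among the 4 scaffold and chaperone proteins of the nucleolus, Nolc1 fell and the other 3 had smaller values below 0 (median log2 change -0.28). Nolc1, a chaperone of snoRNPs, had 796 and 908 in FGF13Aoe, against 1398 and 1542 in control, which is a log2 change of -0.79 ± 0.13 (SE, 2 against 2 libraries; limma adjusted p = 0.00853). Ncl, or nucleolin, which binds the nascent precursor, had 5938 and 5808 in FGF13Aoe, against 7192 and 7552 in control, and its log2 change of -0.33 ± 0.13 did not pass (limma adjusted p = 0.0988). Npm1, or nucleophosmin, a major structural protein of the nucleolus whose reads may be shared with processed pseudogenes, had 4858 and 4197 in FGF13Aoe, against 5098 and 5495 in control, with a log2 change of -0.23 ± 0.14 (limma adjusted p = 0.240). In all 4, Mybbp1a included (-0.18), both FGF13Aoe libraries lay below both control libraries. Nolc1 lost its call without control replicate 1 (adjusted p = 0.0631) and without control replicate 2 (0.0845).

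Proteins of the box C/D snoRNPs, which methylate ribosomal RNA on the sugar, were lower in all 4 genes, with a median log2 change of -0.85. Nop56, a core scaffold protein, had 561 and 702 in FGF13Aoe, against 1095 and 1353 in control, a log2 change of -0.95 ± 0.17 (SE, 2 against 2 libraries; limma adjusted p = 0.0110). Nop58, its partner in the scaffold, had 712 and 622 in FGF13Aoe, against 1099.6 and 1110.4 in control, a log2 change of -0.73 ± 0.13 (SE, 2 against 2 libraries; limma adjusted p = 0.00965). Fibrillarin (Fbl), the methyltransferase itself, had 592 and 682 in FGF13Aoe, against 1033 and 1139.7 in control, a log2 change of -0.77 ± 0.13 (SE, 2 against 2 libraries; limma adjusted p = 0.0100). Levels in FGF13Aoe were thus between 51.6% and 60.4% of control for these 3 core proteins. Rrp9, which belongs to the U3 snoRNP that guides processing of the small subunit, had 181 and 159.9 in FGF13Aoe, against 322 and 328 in control, a log2 change of -0.93 ± 0.16 (SE, 2 against 2 libraries; limma adjusted p = 0.0106). Without control replicate 1 only Nop56 of the 4 kept its call (adjusted p = 0.0478 to 0.0952), and without control replicate 2 none did (0.0848 to 0.0965), while the log2 changes stayed between -1.11 and -0.70.

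Of the 4 core proteins of the box H/ACA snoRNPs, which turn uridine into pseudouridine, 3 were lower and 0 higher (median log2 change -0.68). Nhp2, a core protein, had 278 and 298 in FGF13Aoe, against 575 and 656 in control, a log2 change of -1.09 ± 0.14 (SE, 2 against 2 libraries; limma adjusted p = 0.00487). Gar1 had 123 and 111 in FGF13Aoe, against 198 and 216 in control, a log2 change of -0.82 ± 0.19 (SE, 2 against 2 libraries; limma adjusted p = 0.0233). Dkc1, or dyskerin, the pseudouridine synthase, had 313 and 340.1 in FGF13Aoe, against 451 and 496 in control, a log2 change of -0.53 ± 0.14 (SE, 2 against 2 libraries; limma adjusted p = 0.0342). The groups did not overlap for any of the 4. Nop10 had a log2 change of -0.47 ± 0.15 that did not pass (limma adjusted p = 0.0621). Dkc1 lost its call without FGF13Aoe replicate 1 (adjusted p = 0.0556) and when either control library was left out, Gar1 when either control library was left out, and Nhp2 without control replicate 2 (0.0544).

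In the small subunit processome, 6 of 15 genes were lower and 0 higher, with a median log2 change of -0.40. Utp20 (GRCm38 chromosome 10, 88746607 to 88826804), a very long scaffold protein of the assembly, had 349 and 393 in FGF13Aoe, against 868 and 871 in control, a log2 change of -1.23 ± 0.13 (SE, 2 against 2 libraries; limma adjusted p = 0.00274). Nol6, which had the highest normalized count of the 15 without scaling for length, had 759 and 760.1 in FGF13Aoe, against 1189 and 1148 in control, a log2 change of -0.62 ± 0.11 (SE, 2 against 2 libraries; limma adjusted p = 0.0109). Heatr1, whose yeast counterpart is Utp10, had 298 and 411 in FGF13Aoe, against 589 and 600.4 in control, a log2 change of -0.76 ± 0.19 (SE, 2 against 2 libraries; limma adjusted p = 0.0264). The FGF13Aoe libraries of these 3 lay well below the control libraries, and the 2 FGF13Aoe libraries of Heatr1 differed more from each other than those of Nol6. Nol10, Utp18 and Nol11 also fell, with log2 changes of -0.68, -0.59 and -0.59. Another 4 genes (Wdr75, Wdr43, Utp6 and Utp3) came close to the threshold, with log2 changes of -0.47 to -0.34 and limma adjusted p of 0.0506 to 0.0826. The last 5 ran from -0.30 (Utp4) through Nop14 and Utp15 to 0.23 (Utp11) and 0.27 (Utp14a, 324 and 336 in FGF13Aoe, against 259 and 289 in control). Of the exonic bases of Utp14a 11.5% overlap another annotated gene, as do 8.16% of those of Nol11. Utp20 kept its call when any library was left out. Nol10, Nol11, Nol6, Heatr1 and Utp18 lost theirs when either control library was left out (adjusted p up to 0.237), and Utp18 also without FGF13Aoe replicate 2 (0.0551).

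Late maturation of the 40S subunit held the largest falls of the 60 genes. Rrp12 (GRCm38 chromosome 19, 41862851 to 41896173), which takes part in the maturation and export of the precursor, had 109.9 and 145 in FGF13Aoe, against 405 and 371 in control, a log2 change of -1.61 ± 0.20 (SE, 2 against 2 libraries; limma adjusted p = 0.00422). Bysl (GRCm38 chromosome 17, 47599331 to 47611492), or bystin, an assembly factor of the 40S precursor, had 196 and 217 in FGF13Aoe, against 542 and 618 in control, a log2 change of -1.49 ± 0.15 (SE, 2 against 2 libraries; limma adjusted p = 0.00262). FGF13Aoe levels were 32.8% of control for Rrp12 and 35.5% for Bysl. Ltv1, which accompanies the same precursor out of the nucleus, had 257 and 282 in FGF13Aoe, against 323 and 364 in control, a smaller log2 change of -0.35 ± 0.16 that did not pass (limma adjusted p = 0.135). Rrp12 and Bysl kept their calls when any library was left out, with log2 changes of -1.81 to -1.39 and adjusted p of 0.00345 to 0.0468. Of the exonic bases of Bysl 9.37% overlap Ccnd3, and whether counting used strand is not given in the sources used here.

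Among 6 nucleolar DEAD-box RNA helicases, which remodel RNA and protein contacts in the precursor, only Ddx21 passed the test (median log2 change -0.35). Ddx21 (GRCm38 chromosome 10, 62580251 to 62602281), known for roles in transcription by RNA polymerase I and in processing, had 716 and 856 in FGF13Aoe, against 1659 and 1742 in control, a log2 change of -1.12 ± 0.13 (SE, 2 against 2 libraries; limma adjusted p = 0.00380). Ddx27 had 422 and 482 in FGF13Aoe, against 593 and 558 in control, a log2 change of -0.35 ± 0.14 (limma adjusted p = 0.0961). Ddx56 had 409.6 and 406 in FGF13Aoe, against 469.5 and 575 in control, a log2 change of -0.35 ± 0.15 (limma adjusted p = 0.124). The groups did not overlap for these 3 or for Ddx18 (-0.35), but did for Ddx51 (-0.13) and Ddx10 (0.22). Ddx21 kept its call when any library was left out (adjusted p up to 0.0392).

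Of 16 factors of 60S assembly, 5 were lower and 0 higher, with a median log2 change of -0.38. Nop2, a methyltransferase of the large ribosomal RNA, had 408 and 369 in FGF13Aoe, against 711 and 751 in control, a log2 change of -0.91 ± 0.13 (SE, 2 against 2 libraries; limma adjusted p = 0.00589). Bop1, a scaffold of the PeBoW complex that early 60S precursors need, had 355 and 475 in FGF13Aoe, against 869 and 888 in control, a log2 change of -1.10 ± 0.17 (SE, 2 against 2 libraries; limma adjusted p = 0.00741). Nol9, a polynucleotide kinase that acts on a spacer of the precursor, had 404 and 389 in FGF13Aoe, against 589 and 587 in control, a log2 change of -0.57 ± 0.13 (SE, 2 against 2 libraries; limma adjusted p = 0.0200). In each of these the groups were well apart. Mrto4 and Wdr12 also fell, by 0.64 and 0.51 on the log2 scale. The annotation names 2 pseudogenes of Mrto4, and whether they share its reads was not tested. The 3 partners of the PeBoW complex did not give like values: Wdr12 had 324 and 375 in FGF13Aoe, against 509 and 482 in control, while Pes1 had 767 and 799 in FGF13Aoe, against 749.9 and 761 in control, with a log2 change of 0.05 ± 0.11 (limma adjusted p = 0.748). Wdr12 and Pes1 were picked for this comparison after their values were seen, and the difference between the partners was not tested. Rrp1, with the highest normalized count of the 16 without scaling for length, had 2785 and 2777 in FGF13Aoe, against 3004 and 3069 in control, a log2 change of -0.13 ± 0.11 (limma adjusted p = 0.406). Among the other genes that did not pass, Nop16, Rrp1b, Nip7, Rrp15, Noc2l, Noc3l and Gnl3 (nucleostemin) ran from -0.56 to -0.19, and Gnl2 and Nle1 were at 0.10 and 0.11. Of the exonic bases of Noc2l 20.9% overlap Samd11 on the other strand. When either control library was left out the 5 calls were lost (adjusted p of 0.0568 to 0.258), and without FGF13Aoe replicate 1 that of Wdr12 (0.0699).

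**Figure D3:**
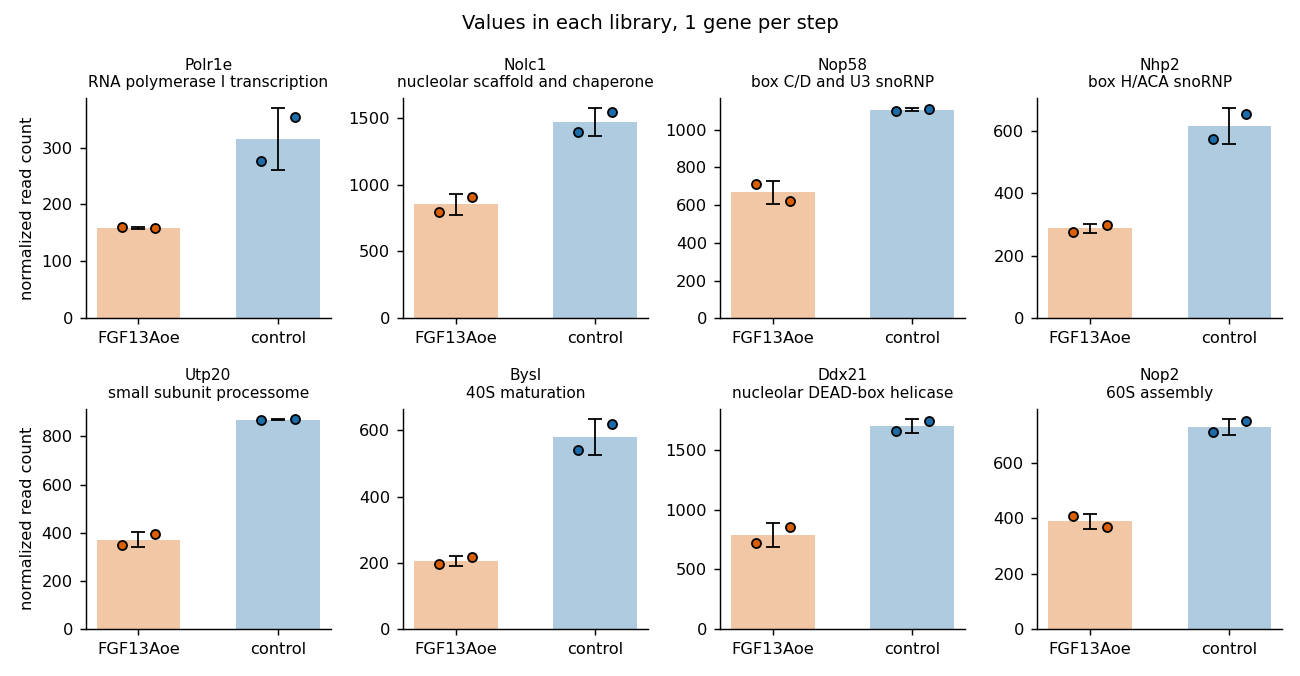
Normalized read count (vertical axis, from 0) in each library (points) for the gene with the smallest p in each of the 8 steps, with bars at the group mean and error bars of 1 SD (2 libraries per group), FGF13Aoe left of control. In each panel both FGF13Aoe points lie below both control points, as for Bysl, with 196 and 217 in FGF13Aoe, against 542 and 618 in control.

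Levels differed widely among the 60 genes. Per kilobase of exon, the mean normalized count was highest for Npm1 (1843), Rrp1 (872) and Ncl (650.0) and lowest for Wdr12 (35.3). None of the 3 most abundant genes on this scale passed the test. Of the 60 genes 6 (Nop56, Nop58, Gnl3, Ncl, Wdr43 and Dkc1) hold annotated snoRNA genes in their span, beside 296 of 15197 annotated tested genes (1.95%). Of these 6 hosts, 3 fell (Nop56, Nop58 and Dkc1). Hosts were 12.0% of the 25 genes that fell and 8.57% of the 35 that did not pass. The 19 snoRNA genes themselves had normalized counts of at most 12.1 in any library, and 9 of them were at 0 in all libraries. Whether the libraries captured RNAs this small was not tested, so these counts do not show their abundance in the cells.

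Other genes of the pathway gave mixed values. Of 80 further genes outside the 60, 16 were lower (20.0%) and 3 higher, close to the 19.1% and below the 16.2% of all tested genes, with a median log2 change of -0.17. Of 8 other RNA polymerase I and SL1 factors 0 were lower and 0 higher by limma, with 0 lower and 3 higher at an unadjusted p under 0.05, and edgeR on 3 libraries also called 0. Their median log2 change was 0.20, and the 3 with the smallest p were Znrd1, Ttf1 and Taf1b. Znrd1, a small polymerase subunit, had 224 and 194 in FGF13Aoe, against 146 and 145 in control. Ttf1, which ends transcription of ribosomal DNA, had 395 and 352 in FGF13Aoe, against 275 and 285 in control. Taf1b, a subunit of SL1, had 265 and 262 in FGF13Aoe, against 199 and 194 in control. In these 3 both FGF13Aoe libraries lay above both control libraries, but log2 changes of 0.52, 0.41 and 0.42 did not pass (limma adjusted p of 0.0753 to 0.0878).

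Of 29 further small subunit and 40S factors, 6 were lower and 1 higher (median log2 change -0.16). Pno1, an assembly factor of the 40S precursor like Bysl, had 96.7 and 116 in FGF13Aoe, against 326 and 329 in control, a log2 change of -1.62 ± 0.19 (SE, 2 against 2 libraries; limma adjusted p = 0.00344). It kept its call when any library was left out. Wdr36 had 417 and 347 in FGF13Aoe, against 575 and 635 in control, a log2 change of -0.67 ± 0.15 (SE, 2 against 2 libraries; limma adjusted p = 0.0225). Mphosph10, a partner in the U3 particle, had 238 and 258 in FGF13Aoe, against 369 and 408 in control, a log2 change of -0.64 ± 0.15 (SE, 2 against 2 libraries; limma adjusted p = 0.0245). Ddx47, a helicase, moved the other way, with 826 and 830.0 in FGF13Aoe, against 608 and 641 in control, with a log2 change of 0.41 ± 0.12 (SE, 2 against 2 libraries; limma adjusted p = 0.0423). Apart from Pno1, these genes lost their calls when either control library was left out.

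Of 31 further 60S factors 9 were lower and 2 higher (median log2 change -0.27). The gene with the smallest p was one of those that rose: Nop53, a late assembly factor that recruits the RNA exosome, had 2314 and 2095 in FGF13Aoe, against 973 and 1029 in control, a log2 change of 1.14 ± 0.12 (SE, 2 against 2 libraries; limma adjusted p = 0.00262), and kept its call when any library was left out. Mdn1, a giant motor protein that strips factors from the 60S precursor, had 912 and 894 in FGF13Aoe, against 1789 and 1542 in control, a log2 change of -0.88 ± 0.13 (SE, 2 against 2 libraries; limma adjusted p = 0.00580). Gnl3l, a paralog of Gnl3, had 917 and 881 in FGF13Aoe, against 1624 and 1506 in control, a log2 change of -0.80 ± 0.11 (SE, 2 against 2 libraries; limma adjusted p = 0.00582). Nsa2 also rose, with 1869 and 1504 in FGF13Aoe, against 927 and 950.2 in control, with a log2 change of 0.84 ± 0.14 (SE, 2 against 2 libraries; limma adjusted p = 0.00946), but 37.2% of its exonic bases overlap Fam169a. Mdn1 lost its call without control replicate 1, and Gnl3l and Nsa2 when either control library was left out. Of 12 genes of the nuclear RNA exosome, which trims the precursors, only Exosc9 was lower and 0 were higher (median -0.26). Exosc9 had 234 and 273 in FGF13Aoe, against 433 and 460.4 in control, a log2 change of -0.82 ± 0.15 (SE, 2 against 2 libraries; limma adjusted p = 0.0128). That call too was lost when either control library was left out, and 10.8% of its exonic bases overlap Ccna2.

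Genes of the MYC network, which act on many promoters of this pathway, included more genes that rose than fell. Myc itself had 713 and 924 in FGF13Aoe, against 715 and 762 in control, a log2 change of 0.14 ± 0.16 (limma adjusted p = 0.534), and without FGF13Aoe replicate 2 its value was -0.051. Mycn had 277 and 260.1 in FGF13Aoe, against 241 and 212 in control, a log2 change of 0.25 ± 0.16 (limma adjusted p = 0.281). Neither passed the test. Of the 11 genes of the network 5 were higher and 1 lower (median log2 change 0.40). Mxi1, a MAX partner that represses MYC targets, had 2009 and 1441 in FGF13Aoe, against 447 and 424 in control, a log2 change of 1.96 ± 0.18 (SE, 2 against 2 libraries; limma adjusted p = 0.00199). Mycl, a MYC family member, had 1051 and 1346 in FGF13Aoe, against 447 and 346 in control, a log2 change of 1.60 ± 0.19 (SE, 2 against 2 libraries; limma adjusted p = 0.00373). Mxd1, another repressive partner of MAX, had 623 and 466 in FGF13Aoe, against 296 and 265 in control, a log2 change of 0.94 ± 0.19 (SE, 2 against 2 libraries; limma adjusted p = 0.0146). For these 3 both FGF13Aoe libraries lay above both control libraries. Mnt and Max rose as well, with log2 changes of 0.78 and 0.49, and Mxd3 fell, with 41.1 and 49.6 in FGF13Aoe, against 77.3 and 116 in control, with a log2 change of -1.05 ± 0.31 (SE, 2 against 2 libraries; limma adjusted p = 0.0454). Mxi1 and Mycl kept their calls when any library was left out, Mxd1 and Mnt lost them when either control library was left out, Max also without FGF13Aoe replicate 1, and Mxd3 without any 1 of the 4.

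**Figure D4:**
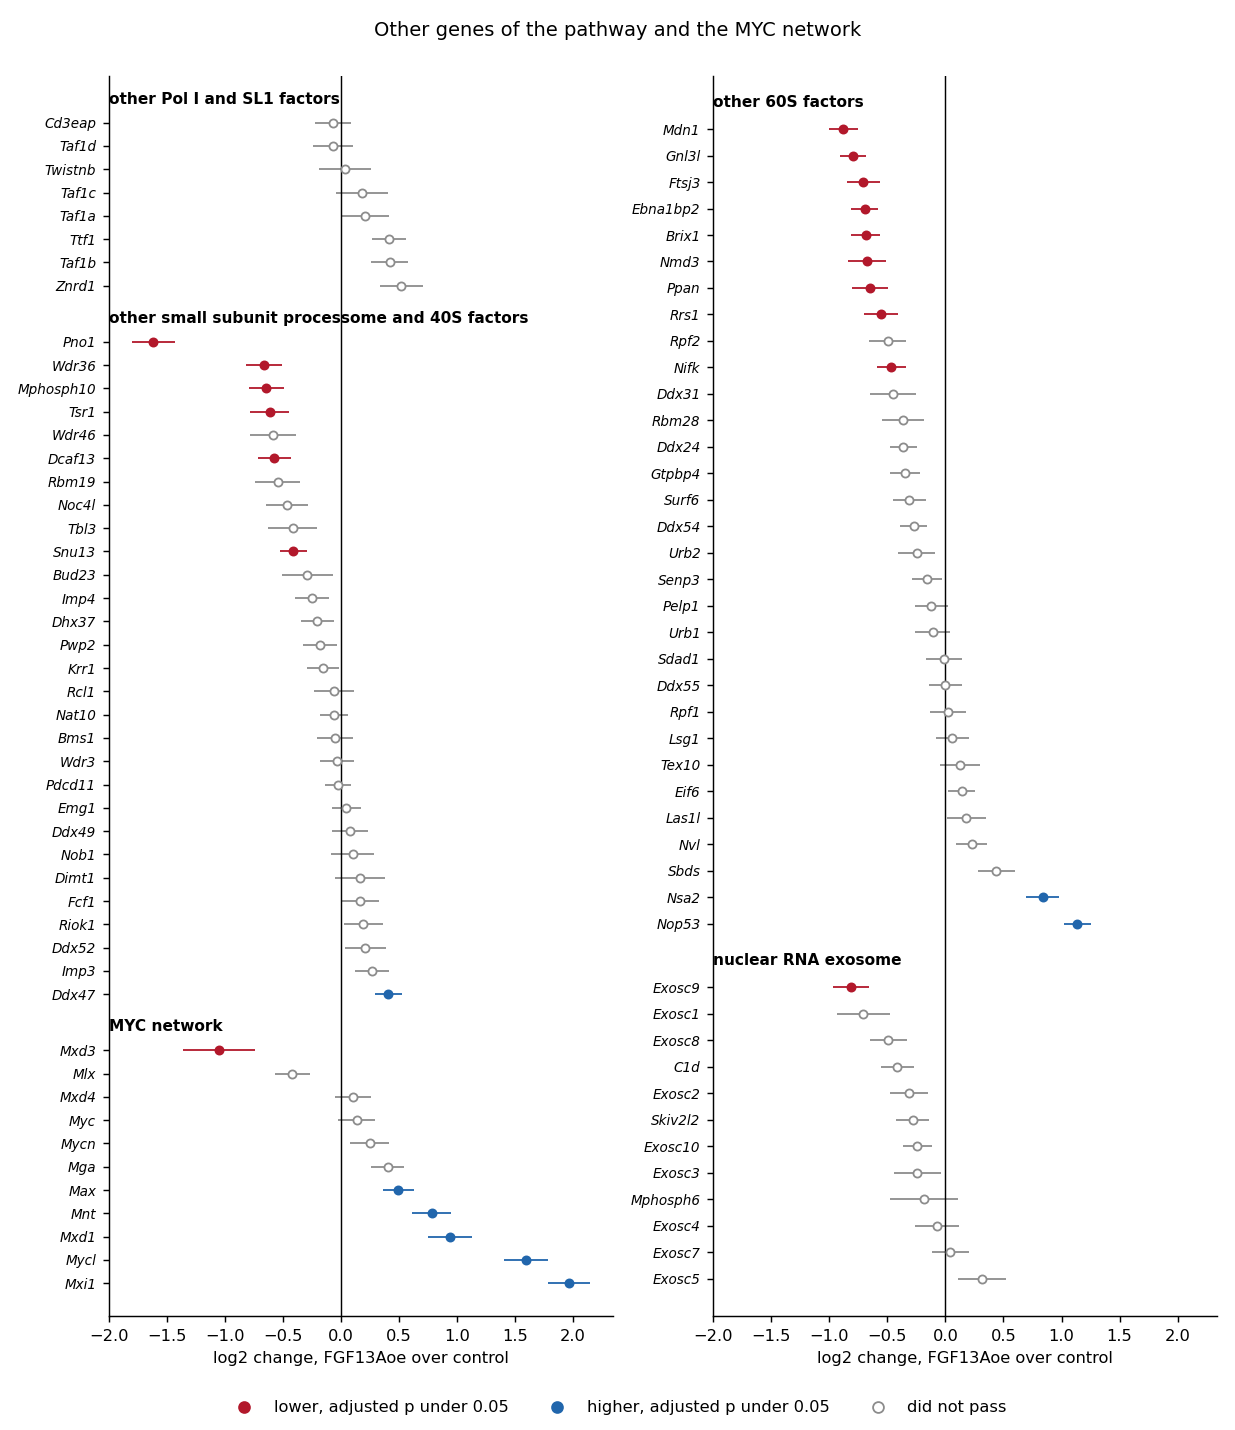
Log2 change (horizontal axis, FGF13Aoe over control; bars are the SE) of 91 further genes in 5 lists (4 of the pathway and the MYC network), with filled points for genes at an adjusted p under 0.05 (red lower, blue higher). Points lie on both sides of 0, from Pno1 at -1.62 to Mxi1 at 1.96.

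The number of calls among the 60 genes fell when a control library was left out, while their median log2 change moved little. Without FGF13Aoe replicate 1, 26 were lower (20.2% of tested genes), and without FGF13Aoe replicate 2, 30 were lower (22.7%). Without control replicate 1, 6 were lower (5.7%), namely Bysl, Ddx21, Nhp2, Nop56, Rrp12 and Utp20. Without control replicate 2, 4 were lower (6.41%), namely Bysl, Ddx21, Rrp12 and Utp20. In each of these 4 fits 0 of the 60 were higher, against 15% of tested genes without FGF13Aoe replicate 1, 18.6% without FGF13Aoe replicate 2, 3.62% without control replicate 1 and 5.06% without control replicate 2. The group left with 1 library is assumed to vary like the other. The median log2 change of the 60 genes stayed between -0.44 and -0.40. Those 4 genes were called under all 16 alternative settings tried, these fits included, and all 25 called genes had log2 changes below 0 under each setting. In each of these 25 both FGF13Aoe libraries lay below both control libraries, so leaving out a library could not turn the sign. The filter, block and intensity trend settings left the log2 change as it was. The unchanged sign is thus no separate evidence. By the authors' deposited table, 23 of the 60 were lower at an adjusted p under 0.05 and 0 higher, against 16.6% and 13.9% of its 16301 genes with a value.

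**Figure D5:**
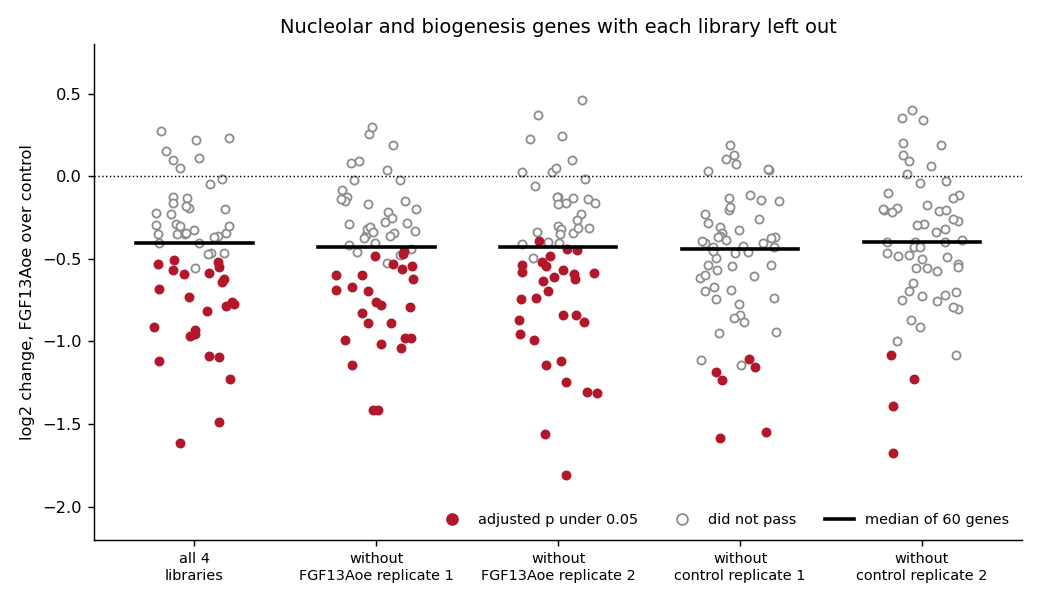
Log2 change (vertical axis, FGF13Aoe over control) of the 60 genes with all 4 libraries and with each library left out in turn (horizontal axis); red points are genes at an adjusted p under 0.05 and black lines the median. The medians lie between -0.44 and -0.40 throughout, while 25, 26, 30, 6 and 4 genes are red from left to right.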

How the data were processed

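Per the labels' protocols, RNA came from Trizol lysates and libraries from the NEBNext Ultra kit. STAR, DESeq2 and the mm10 build are named in the submitters' processing notes. The tool versions, annotation release and strand use were not given in the sources used here. For 48178 genes the authors deposited a normalized signal per library (read counts divided by a size factor), with their log2 fold change, its standard error, a Wald score, and p-value and adjusted p-value. All values (100%) of the 4 libraries are whole multiples of that library's smallest non-zero value (tolerance 1e-06 of the value). The multiples gave the read totals and were used as counts for 3 libraries. Control replicate 1 was left out because its smallest value, 0.991, was judged too close to 1.

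Genes with a value of at least 10 in at least 2 libraries (15204) were compared with limma 3.58.1 (R 4.3.3) on log2(value + 1), with an intensity trend and no replicate block, two-sided, with Benjamini-Hochberg adjusted p under 0.05 as the threshold. This scale understates the change of low genes. The p-values were adjusted over all tested genes. All 60 genes may be named; values per library are given for the 3 with the smallest p in each step, the most abundant one and any called against the step's direction, and for the 3 with the smallest p in each further list and any called against its direction, with Fgf13, Myc and Mycn. The 60 genes and all lists were chosen with earlier results of these data known. Of 93 further genes of the pathway and the MYC network 91 were tested; Exosc6 was listed at 0 in all libraries and Riok2 was not matched by its symbol. Positions, exon overlaps and exon lengths came from GENCODE vM21 (GRCm38), which held 15197 of the tested genes, and promoter windows from RefSeq. Alternatives were other pseudocounts (0.5 and 5), filters (none, or a minimum of 50), scalings (TMM, median centring, equal totals), no intensity trend, a replicate block, the authors' adjusted p-values and leaving out each library; a crossed block and edgeR 4.0.16 (quasi-likelihood) on 3 libraries were chosen after seeing the data. Simulated counts were used to test the scripts.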

Additional observations from a re-analysis of the deposited data

How the results depend on the processing

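Of the 60 genes, 50 had a log2 change below 0 under all 16 alternatives. In 49 of the 60 both FGF13Aoe libraries lay below both control libraries, as in 37.5% of all tested genes. For such genes leaving out a library could not turn the sign. The number called lower was 25 and stayed between 17 and 27 under other pseudocounts, filters, scalings and block designs, no intensity trend and the authors' p-values, with 0 called higher. Scalings moved the median of all genes by at most 0.07 on the log2 scale, and the median of the 60 genes was -0.34 under median centring. By edgeR on 3 libraries, the same libraries as in the limma fit without control replicate 1, 6 of the 60 genes were lower, as were 1086 of all tested genes, with 537 higher, and of the further genes of the pathway and the MYC network 1 was lower and 3 higher (17 and 8 by limma). Without an intensity trend, 9 of those were lower and 5 higher. With each library left out in turn, 4 to 30 of the 60 genes were lower, 867 to 3447 of all tested genes were lower and 551 to 2822 higher, and of the further genes 1 to 23 were lower and 3 to 10 higher. The cause was not tested. Myc, at 0.14 on the log2 scale, ran from -0.051 (without FGF13Aoe replicate 2) to 0.32 (without FGF13Aoe replicate 1). Same-numbered deviations correlated at -0.10 over genes. With 2 libraries per group this cannot decide whether the replicate numbers pair the libraries, and the labels do not say. With a replicate block 22 of the 60 genes, 2647 of all tested genes and 15 of the further genes were lower, and 0, 2049 and 7 higher. With the numbers crossed, 27 of the 60 genes and 3257 of all tested genes were lower, and 0 and 2816 higher. Of the log2 changes of 48 named genes, 23 lost their call by edgeR, 23 without control replicate 1, 24 without control replicate 2 and at most 7 under any other alternative. Not all 48 named genes were called with all 4 libraries, and those that were not, such as Myc and Mycn, could not lose a call. The losses are therefore a larger share of the called genes than of the 48. With 2 libraries per group, 24 of the 60 genes had both FGF13Aoe libraries below both control libraries and did not pass the test. The same held for 2793 of all 15204 tested genes.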
